A study of Mus musculus with 3 samples.

Results

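Endothelial cells of mouse gastrocnemius muscle that fell into a capillary gate and carried 1 or 2 arterial UMIs were the cells of interest, here called low-arterial cells. A UMI is a molecular tag that counts 1 captured mRNA molecule. They were chosen by their own counts. A kept barcode (at least 1000 UMIs, at least 300 genes and at most 10% mitochondrial UMIs) needed at least 10 UMIs over the capillary genes Gpihbp1, Rgcc, Cd36, Fabp4, Car4, Cd300lg and Timp4. It also needed exactly 1 or 2 UMIs over the arterial genes Sema3g, Gja5, Gja4, Bmx, Hey1, Stmn2 and Fbln5, and at most 1 UMI over the venous genes Nr2f2, Vwf, Vcam1, Ackr1, Selp and Lrg1. The rule took 1684 of the 6500 cells in the capillary gate, of 8105 kept barcodes and 11715 barcodes in all. Within the same gate, 3386 cells had 0 arterial UMIs (zero-arterial cells) and 1430 had 3 or more (arterial-rich cells).

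The cells came from C57BL/6N mice and had been sorted alive as CD31+, CD45- cells after enzymatic digestion of the muscle. One library was made from mice housed singly with a wheel for 14 days (running), 1 from mice housed singly with none (sedentary) and 1 from mice with no treatment (untreated), whose housing the sources used here do not give. Age, sex, the number of animals per library and any preparation date are likewise not given in the sources used here, so library, batch and group cannot be told apart. With 1 library per group, no test was made between groups.

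Muscle vessels change along their length, with arteries and arterioles feeding a dense capillary bed that drains into venules. Arterial endothelium is known for Notch signalling (ligands such as Dll4 and Jag1, targets such as Hey1), for ephrin-B2 and for the gap junction proteins connexin 37 (Gja4) and connexin 40 (Gja5). Capillary endothelium of muscle is known for handling lipid, with Gpihbp1 holding lipoprotein lipase on the vessel wall and Cd36 and Fabp4 binding fatty acids.

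The libraries held 5983685 UMIs (running), 5625068 UMIs (sedentary) and 8002866 UMIs (untreated). Low-arterial cells numbered 520, 533 and 631 in the running, sedentary and untreated libraries, and their summed counts lay between 988698 and 1146618 UMIs. They were deeper than zero-arterial cells, with median UMI counts of 1824 (running), 1673 (sedentary) and 1609 (untreated) against 1661 (running), 1583.5 (sedentary) and 1565 (untreated). Arterial-rich cells were deeper still, at 2327 (running), 1977 (sedentary) and 2005 (untreated). As a check of the label, 8 endothelial markers summed to 8402 CPM (running), 8267 CPM (sedentary) and 7250.02 CPM (untreated) in low-arterial cells. The capillary gene Rgcc stood at 1319 CPM (running), 1355 CPM (sedentary) and 1518 CPM (untreated) there, a description only, since the gate used it. Between 20 and 32 barcodes recurred in each pair of libraries, and at most 1 of these was a low-arterial cell in both. The erythrocyte markers were 4 haemoglobin genes, all detected in each class of each library. They summed in low-arterial cells to 10707 (running), 5690 (sedentary) and 195 CPM (untreated), CPM being UMIs scaled to 1e+06 per sum. Zero-arterial cells had 2828 (running), 5759 (sedentary) and 265 CPM (untreated) of these markers. Lymphatic markers summed to 251 (running), 16.2 (sedentary) and 79.4 CPM (untreated), and mural cell markers to 404 (running), 222 (sedentary) and 296 CPM (untreated), in low-arterial cells. Zero-arterial cells had 160 (running), 12.9 (sedentary) and 5.44 CPM (untreated) of lymphatic and 319 (running), 174 (sedentary) and 221 CPM (untreated) of mural markers. Arterial-rich cells had 1014 (running), 21.6 (sedentary) and 9.87 CPM (untreated) of lymphatic and 391 (running), 240.3 (sedentary) and 252 CPM (untreated) of mural markers, with Ccl21a at 871 CPM in the running library. In sedentary low-arterial cells the lymphatic markers Pdpn, Mmrn1 and Reln and the mural markers Kcnj8, Cspg4 and Notch3 stood at 0. The part of these other cell types in the results was not tested except where values without such barcodes are given.

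Low-arterial cells made up 27.2% (exact Clopper-Pearson 95% interval 25.2 to 29.2) of the capillary gate in the running library, 29.4% (27.3 to 31.5) in the sedentary library and 22.8% (21.2 to 24.4) in the untreated library. The running share was 2.21 percentage points under the sedentary share, with an interval of -5.14 to 0.71 that spans 0 and covers counting error only. After each cell was thinned to 1000 UMIs, the shares were 23.7% (running), 27.7% (sedentary) and 24.8% (untreated), and the running to sedentary difference was -4.01 points (-6.85 to -1.16). Thinning thus left the running and untreated shares within 1.15 points of each other, while as deposited the running share was 4.40 points higher than the untreated share. Most low-arterial cells sat at the lower edge of the rule, with 1 UMI in 378 of 520 (running), 353 of 533 (sedentary) and 398 of 631 cells (untreated). Just outside it, 82 (running), 116 (sedentary) and 136 cells (untreated) had 3 arterial UMIs.

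**Figure D1:**
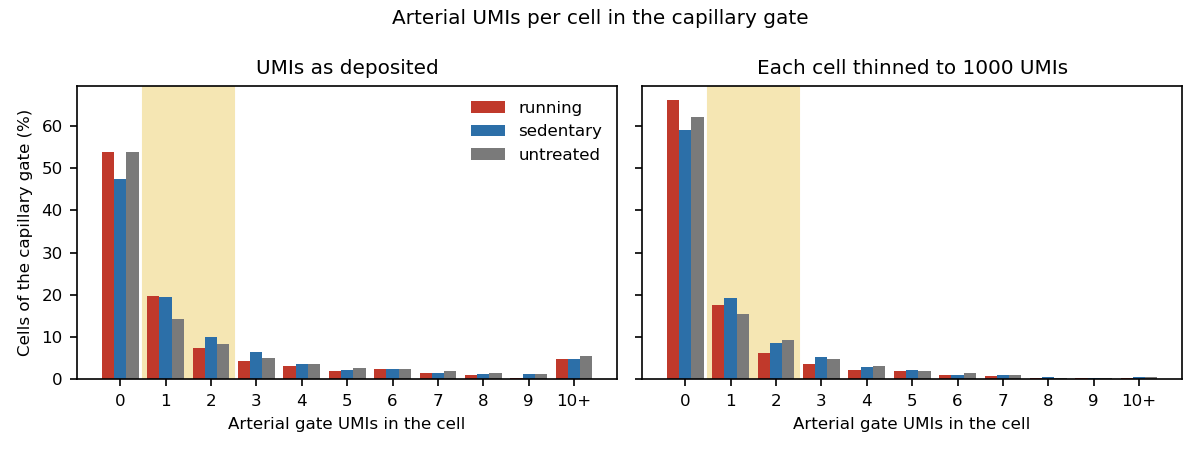
Share of capillary gate cells (vertical axis, %) by number of arterial UMIs in the cell (horizontal axis), as deposited (left) and after thinning each cell to 1000 UMIs (right), for the 3 libraries. The shaded band marks the 1 or 2 UMIs of low-arterial cells; cells at 0 were the most common in each library, with 53.8% in the running library as deposited.

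Stmn2, which encodes the microtubule-binding protein stathmin-2, gave the most arterial UMIs, with 43.2% in running, 52.3% in sedentary and 40.2% in untreated low-arterial cells. Hey1, a transcriptional repressor downstream of Notch, gave 20.1% (running), 19.9% (sedentary) and 26.6% (untreated). Sema3g, a secreted semaphorin, gave 12.2% (running), 8.84% (sedentary) and 13.2% (untreated). Fbln5, an elastic fibre protein, gave 13.4% (running), 10.1% (sedentary) and 9.95% (untreated). The connexin genes gave less, with 7.40% (running), 7.01% (sedentary) and 5.09% (untreated) for Gja4 and 3.02% (running), 1.68% (sedentary) and 4.86% (untreated) for Gja5. Bmx, a tyrosine kinase gene, gave at most 0.604% in any library. Of the label's own markers, Sema3g, Gja4 and Gja5 therefore accounted for a minority of the arterial UMIs. When Fbln5 and Stmn2 were left out of the gate, the share of cells with 1 or 2 arterial UMIs was 20.4% (running), 23.04% (sedentary) and 19.7% (untreated).

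**Figure D2:**
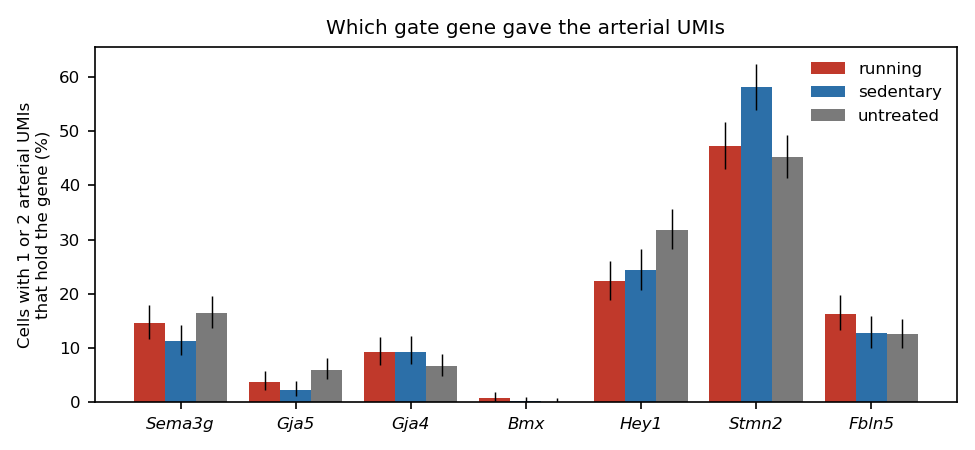
Percentage of low-arterial cells that held at least 1 UMI of each arterial gate gene (vertical axis), by gene (horizontal axis) and library; error bars are exact 95% binomial intervals that cover counting error only. Stmn2 was the most common source in each of the 3 libraries and Bmx the least common. These values were used to choose the cells and are a description.

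Free RNA in a droplet can leave a few UMIs in a cell that does not express a gene, so the same count was made in cells marked as venous, although no value here shows that such cells lack the arterial genes. Barcodes with at least 10 capillary and at least 3 venous UMIs, a class added after the values were seen, numbered 217 (running), 195 (sedentary) and 439 (untreated). Their median depths of 3458 (running), 2837 (sedentary) and 2821 UMIs (untreated) were above those of the capillary gate, at 1795 (running), 1689 (sedentary) and 1673 UMIs (untreated). At 1000 UMIs per cell, 23.7% (running), 27.7% (sedentary) and 24.8% (untreated) of capillary gate cells held 1 or 2 arterial UMIs, against 23.04% (running), 27.2% (sedentary) and 23.2% (untreated) of these venous-marked cells. The share with 1 or 2 arterial UMIs was thus close in both sets of cells, and the origin of the 1 or 2 UMIs of a single cell was not tested. Cells with any arterial UMI made up 33.8% (running), 41.0% (sedentary) and 37.9% (untreated) of the thinned gate, against 27.6% (running), 33.3% (sedentary) and 26.7% (untreated) of the thinned venous-marked cells. The intervals of those shares overlapped in the running and sedentary libraries and did not in the untreated library (36.1 to 39.7 against 22.6 to 31.0). A smaller venous class, listed with the markers and held to under 10 capillary UMIs, had 10 (running), 4 (sedentary) and 46 barcodes (untreated), and at 1000 UMIs per cell 5 (running), 1 (sedentary) and 4 (untreated) of these held 1 or 2 arterial UMIs. The untreated share there was 8.70%, at a median depth of 2315.5 UMIs before thinning, against 24.8% of the untreated gate. Single genes differed in direction as deposited. In the untreated library Hey1 was found in 21.9% of gate cells and 5.92% of the larger venous-marked class, Sema3g in 15.4% and 5.69%, and Gja5 in 13.1% and 5.47%, although the venous-marked cells were deeper. The running shares were closer, at 16.9% and 14.3% (Hey1), 11.8% and 10.1% (Sema3g), and 5.33% and 4.61% (Gja5). The sedentary shares were 20.8% and 9.74% (Hey1), 12.5% and 8.72% (Sema3g), and 5.02% and 4.62% (Gja5). Fbln5 was found in 16.8% (running), 18.5% (sedentary) and 16.6% (untreated) of gate cells, against 26.3% (running), 24.6% (sedentary) and 19.8% (untreated) of venous-marked cells. Stmn2 was found in 28.4% (running), 36.3% (sedentary) and 27.6% (untreated) of gate cells, against 37.8% (running), 34.4% (sedentary) and 26.4% (untreated) of venous-marked cells. Of 43 lymphatic-marked running cells, at a median depth of 2826 UMIs, 65.1% held Stmn2. The results that follow rest on counts summed over the low-arterial cells of a library, and on genes that were not used to choose them.

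Each arterial gate gene was tested as a held-out gene, with cells sorted into the 3 classes by the other 6 genes. Of the 7, 6 were higher in low-arterial than in zero-arterial cells by edgeR's quasi-likelihood test with library as a block. Sema3g stood at 49 (running), 59.1 (sedentary) and 102 (untreated) CPM in low-arterial cells, against 31.8 (running), 25.4 (sedentary) and 26 (untreated) CPM in zero-arterial cells. Its difference was 1.37 ± 0.15 on the log2 scale (SE; edgeR adjusted p = 1.33e-14), and the 2 classes did not overlap. Gja5 stood at 16 (running), 14.1 (sedentary) and 94.6 (untreated) CPM against 6.26 (running), 4.03 (sedentary) and 8.86 (untreated) CPM in zero-arterial cells. Its difference of 2.77 ± 0.24 (edgeR adjusted p = 3.60e-18) was the largest of the 7 with all libraries in the fit, and the untreated library was far above the other 2. Without the untreated library it was 1.52 (edgeR adjusted p = 0.04), below the 1.95 of Fbln5. Hey1 stood at 118 (running), 167 (sedentary) and 221 (untreated) CPM against 60.4 (running), 71.3 (sedentary) and 71.9 (untreated) CPM in zero-arterial cells, a difference of 1.32 ± 0.10 (edgeR adjusted p = 2.68e-17). Fbln5 differed by 2.04 ± 0.12, Gja4 by 1.45 ± 0.19 and Stmn2 by 1.31 ± 0.08, all higher in each library. Bmx had 2 to 5 UMIs per library in low-arterial cells and did not pass the test (1.69 ± 0.70, edgeR adjusted p = 0.26). All 7 were lower than in arterial-rich cells, with log2 differences from -1.19 (Stmn2) to -3.86 (Bmx).

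Over 9142 genes outside the gate lists, 105 were higher and 97 lower in low-arterial than in zero-arterial cells (edgeR adjusted p under 0.05, 2.21% of genes tested; 1.15% higher and 1.06% lower). Against arterial-rich cells, 549 were higher and 597 lower (12.5% of genes; 6.01% higher and 6.53% lower). The test asks whether a difference within libraries recurred over the 3 libraries, which are 3 conditions and not replicates of 1. Of the 202 genes called against zero-arterial cells, 75 lay above zero-arterial and below arterial-rich cells and 70 lay below zero-arterial and above arterial-rich cells, by the calls of both comparisons. Both comparisons share the low-arterial sums, so these counts are a description. The call count depended on the tool, since DESeq2 called 44 genes against zero-arterial cells, and on the gate, since 689 genes were called when Fbln5 and Stmn2 were left out of it. Without a library block edgeR called 0 genes, with 291 at an unadjusted p under 0.05. Single libraries mattered as well, with 91 genes called without the untreated, 96 without the sedentary and 198 without the running library. Of 60 called genes of the lists and named genes, 34 lost the call without 1 library or another, and those 34 are named where the effect of the processing is described.

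Arterial genes outside the gate are given first. Of 24 tested genes of a list of 26, 11 were higher and 0 lower in low-arterial than in zero-arterial cells, with a median log2 difference of 0.43, against -0.0045 over all genes tested (1.15% of which were higher). Against arterial-rich cells, 18 of the 24 were lower and 3 higher, with a median of -0.54, where 6.53% of all genes were lower.

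The Notch ligand genes Jag1 and Dll4 were both higher than in zero-arterial cells. Jag1 stood at 27.1 (running), 38.4 (sedentary) and 73.3 (untreated) CPM in low-arterial cells and at 18.5 (running), 20.3 (sedentary) and 30.3 (untreated) CPM in zero-arterial cells (1.01 ± 0.18 log2, edgeR adjusted p = 1.09e-05). In each library its level in low-arterial cells was the higher of the pair. Dll4 stood at 171 (running), 164 (sedentary) and 149 (untreated) CPM in low-arterial cells and 153 (running), 141 (sedentary) and 84.8 (untreated) CPM in zero-arterial cells (0.38 ± 0.10 log2, edgeR adjusted p = 0.00931). The 2 classes were furthest apart for Dll4 in the untreated library, and without the untreated or the sedentary library Dll4 lost its call. Efnb2, the gene of ephrin-B2, stood at 103 (running), 123 (sedentary) and 246 (untreated) CPM in low-arterial cells and 84.1 (running), 97.6 (sedentary) and 124 (untreated) CPM in zero-arterial cells (0.62 ± 0.10 log2, edgeR adjusted p = 4.51e-06). Without the untreated library neither Efnb2 nor Jag1 passed the test.

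Another 5 genes kept their calls in each alternative that had library as a block. Igfbp3, which encodes a binding protein of insulin-like growth factors (chromosome 11, 7206086 to 7213923, minus strand, build GRCm38), stood at 388 (running), 433 (sedentary) and 434 (untreated) CPM in low-arterial cells. Zero-arterial cells had 211 (running), 250.1 (sedentary) and 199.5 (untreated) CPM of Igfbp3 and arterial-rich cells 862 (running), 1009.6 (sedentary) and 1157 (untreated) CPM. The 3 classes did not overlap, and the difference from zero-arterial cells was 0.93 ± 0.07 on the log2 scale (edgeR adjusted p = 1.54e-18). Glul, the glutamine synthetase gene (chromosome 1, 153899944 to 153909723, plus strand), stood at 187 (running), 194 (sedentary) and 218 (untreated) CPM, against 122 (running), 116 (sedentary) and 116 (untreated) CPM in zero-arterial cells (0.76 ± 0.09 log2, edgeR adjusted p = 4.21e-11). Alpl, the tissue-nonspecific alkaline phosphatase gene, stood at 83.2 (running), 116 (sedentary) and 123 (untreated) CPM, against 43.9 (running), 52.9 (sedentary) and 40.8 (untreated) CPM in zero-arterial cells (1.26 ± 0.13 log2, edgeR adjusted p = 1.83e-13). For both genes the lowest library of low-arterial cells lay above the highest library of zero-arterial cells. Tm4sf1, which encodes a membrane protein of the tetraspanin-like L6 family, stood at 1736 (running), 1785 (sedentary) and 1826 (untreated) CPM, against 1315 (running), 1389 (sedentary) and 1128 (untreated) CPM (0.48 ± 0.05 log2, edgeR adjusted p = 1.32e-14). Unc5b, a netrin receptor gene, stood at 106 (running), 99.1 (sedentary) and 672 (untreated) CPM, against 69.8 (running), 65.1 (sedentary) and 288 (untreated) CPM in zero-arterial cells (0.95 ± 0.09 log2, edgeR adjusted p = 8.72e-15). Unc5b was far higher in untreated cells of either class than in the other 2 libraries, and its difference from arterial-rich cells of -0.24 ± 0.09 did not pass the test (edgeR adjusted p = 0.0782). Vegfc, a growth factor gene best known in lymphatic vessels, Mecom, a transcription factor gene, and Depp1 (8430408G22Rik in the files) were the other called genes, at 0.78, 0.28 and 0.47 on the log2 scale. Without the sedentary library Vegfc and Mecom lost their calls, and without the untreated library Mecom did.

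**Figure D3:**
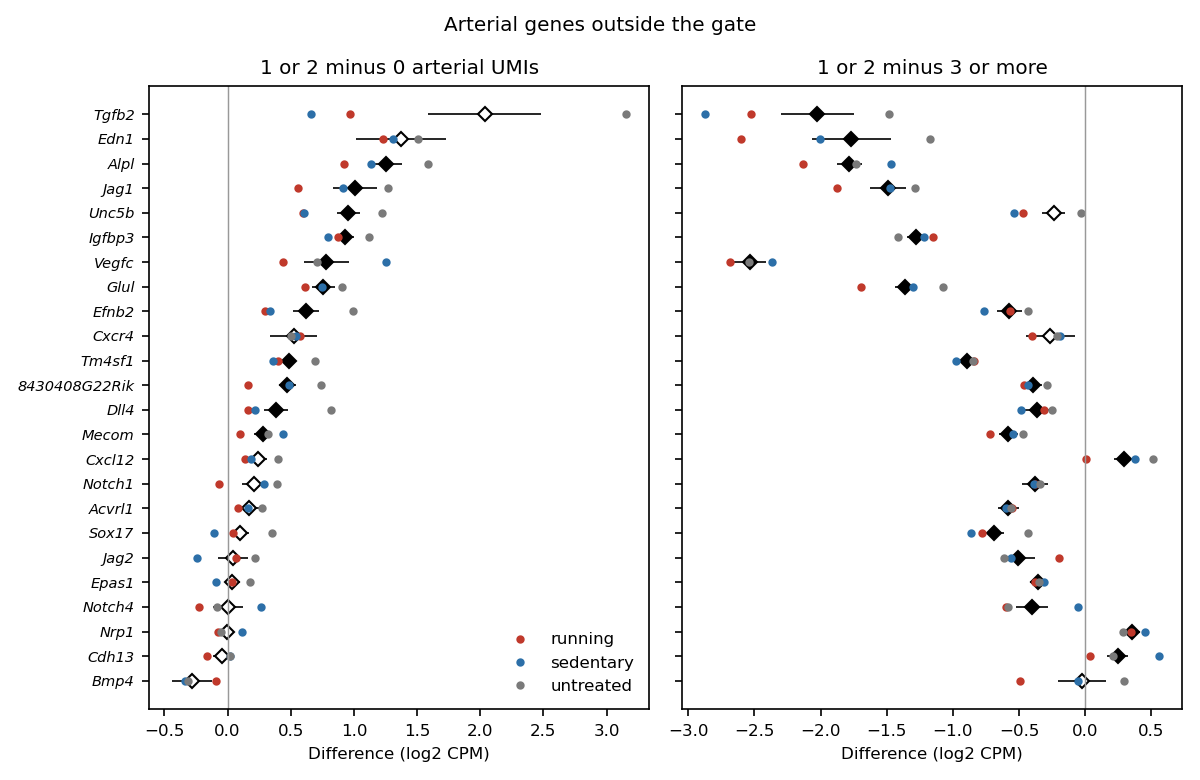
Difference in log2 CPM between low-arterial and zero-arterial cells (left) and between low-arterial and arterial-rich cells (right), for the 24 tested arterial genes outside the gate. Diamonds are the fitted edgeR differences with standard errors, filled where the adjusted p is under 0.05, and coloured points are the 3 libraries; 11 filled diamonds lie right of 0 on the left and 18 lie left of 0 on the right.

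Edn1, the gene of the vasoconstrictor peptide endothelin-1, stood at 64.5 (running), 157 (sedentary) and 385 (untreated) CPM in low-arterial cells, against 27.5 (running), 63 (sedentary) and 135 (untreated) CPM in zero-arterial cells and 393 (running), 629 (sedentary) and 868 (untreated) CPM in arterial-rich cells. Low-arterial cells were higher than zero-arterial cells in each library, but the difference of 1.37 ± 0.36 did not pass the shared fit (edgeR adjusted p = 0.248). A fit of only the low-arterial and zero-arterial sums, added after that p was seen, gave 1.41 with an edgeR adjusted p of 4.95e-43, and over all alternatives the adjusted p ran from 4.95e-43 to 1. Its call therefore depends on the fit; against arterial-rich cells it was -1.77 ± 0.30 (edgeR adjusted p = 0.0313), a call lost in 6 of 19 alternatives, among them the fit without the sedentary library and the fit of 2 classes (edgeR adjusted p = 0.181). Tgfb2, a growth factor gene of the TGF-beta family, stood at 18.7 (running), 17.2 (sedentary) and 70.6 (untreated) CPM, against 9.52 (running), 10.8 (sedentary) and 7.78 (untreated) CPM in zero-arterial cells (2.03 ± 0.45, edgeR adjusted p = 0.0762). It passed in 14 of 19 alternatives, with adjusted p-values of 7.43e-34 to 1 over them, and without the untreated library the difference was 0.82 (edgeR adjusted p = 0.393). In low-arterial cells the untreated library was well above the other 2.

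Cxcl12, Nrp1 and Cdh13 were the 3 arterial list genes that were higher in low-arterial than in arterial-rich cells. Cxcl12, a chemokine gene and one of the label's markers, stood at 1796 (running), 2283 (sedentary) and 2297 (untreated) CPM in low-arterial cells, against 1637 (running), 2009 (sedentary) and 1740.3 (untreated) CPM in zero-arterial and 1793 (running), 1755 (sedentary) and 1609 (untreated) CPM in arterial-rich cells. The running library showed almost no difference from arterial-rich cells, and the fitted difference was 0.29 ± 0.07 log2 (edgeR adjusted p = 0.0142, 1.71e-11 to 0.391 over the alternatives). Against zero-arterial cells it was 0.24 ± 0.07 (edgeR adjusted p = 0.135). By number of arterial UMIs, Cxcl12 was highest at exactly 2, with 2327 (running), 2484 (sedentary) and 2588 CPM (untreated), and lowest at 6 or more, with 1461 (running), 1369.8 (sedentary) and 1266 CPM (untreated). Nrp1, a co-receptor of VEGF and semaphorins, differed from arterial-rich cells by 0.35 ± 0.06 and Cdh13, the gene of T-cadherin, by 0.24 ± 0.08.

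Only a few genes of the 202 stood above or below both other classes, 7 above both and 2 below both, and these were singled out after their values were seen. Gja1, the connexin 43 gene (chromosome 10, 56377330 to 56402513, plus strand), stood at 366 (running), 318 (sedentary) and 522 (untreated) CPM in low-arterial cells. It stood at 259 (running), 230.4 (sedentary) and 398 (untreated) CPM in zero-arterial cells and at 263 (running), 253 (sedentary) and 411 (untreated) CPM in arterial-rich cells. Within each library low-arterial cells were the highest of the 3 classes, by 0.44 ± 0.07 over zero-arterial (edgeR adjusted p = 1.33e-06) and 0.38 ± 0.07 over arterial-rich cells (edgeR adjusted p = 2.81e-05). Gja1 thus ran unlike Gja4 and Gja5, the connexin genes of the gate, which were higher in arterial-rich cells. The difference from arterial-rich cells lost its call among cells of 1000 to 2000 UMIs (0.29, edgeR adjusted p = 0.0822, within a range of 1.34e-06 to 0.808 over the alternatives). Igfbp7, a secreted binding protein gene, and Mgll, which encodes monoacylglycerol lipase, were higher than in zero-arterial cells by 0.13 ± 0.04 and 0.23 ± 0.05 and than in arterial-rich cells by 0.52 ± 0.04 and 0.18 ± 0.06. Against zero-arterial cells the call of Igfbp7 was lost in 11 of 19 alternatives, including without the running (edgeR adjusted p = 0.645) and without the sedentary library (0.189), and its difference was -0.01 in thinned cells. That of Mgll was lost in 8 of 19, including without the sedentary library (edgeR adjusted p = 0.476). Esm1, the gene of the proteoglycan endocan, had 23.4 (running), 63.7 (sedentary) and 53.2 (untreated) CPM against 20.1 (running), 32.5 (sedentary) and 31.1 (untreated) CPM in zero-arterial cells (0.72 ± 0.18), but its sign turned among cells of 1000 to 2000 UMIs (-0.01 against zero-arterial and -0.60 against arterial-rich cells). Sept4, Fkbp3 and Alas2 were the other genes above both; Alas2 encodes an enzyme of haem synthesis in red cell precursors, and 35% of its low-arterial UMIs came from 1 cell. Fos and Eny2 were below both. Of these 9 genes, 1 (Gja1) kept both calls in each fit without 1 library.

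**Figure D4:**
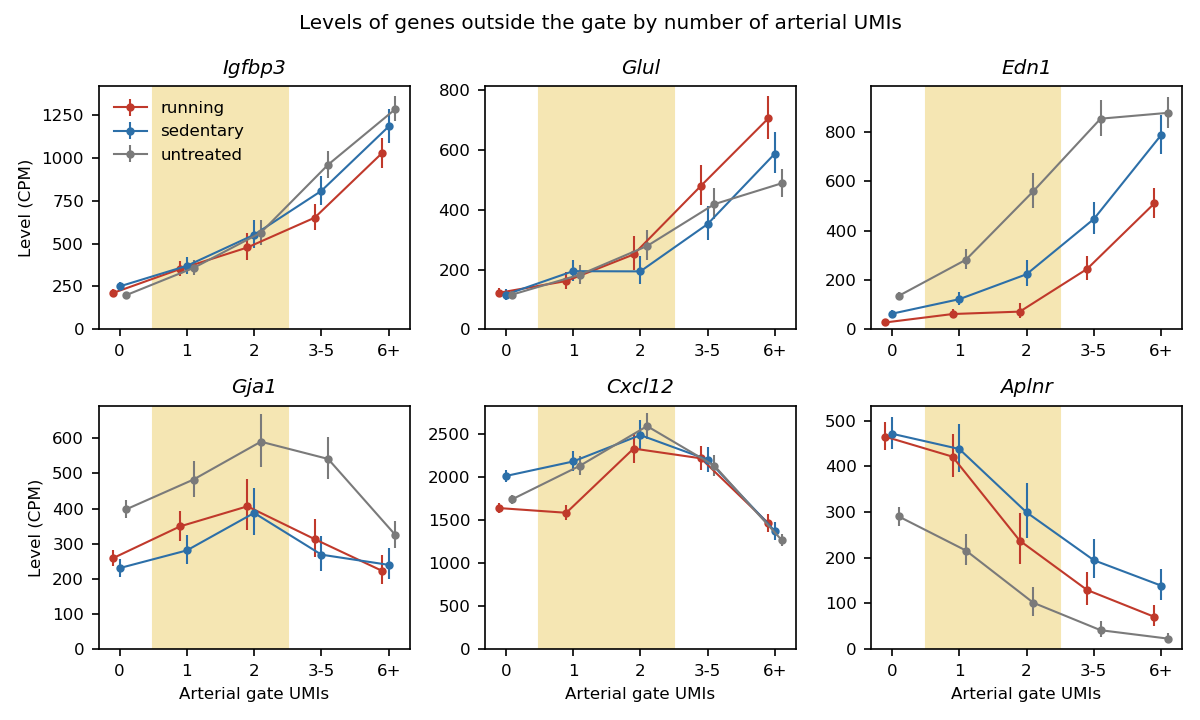
Level in CPM (vertical axes) by number of arterial gate UMIs in the cell (horizontal axes) for 6 genes outside the gate in the 3 libraries; bars are exact 95% Poisson intervals for the summed counts and the shaded band marks low-arterial cells. Igfbp3, Glul and Edn1 were higher at 6 or more UMIs than at 0, Aplnr lower, and Gja1 and Cxcl12 had their highest value at 2 UMIs in each library.

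Of 16 tested capillary genes outside the gate, 0 were higher and 1 was lower than in zero-arterial cells (median -0.09). Of all genes tested, 1.15% were higher and 1.06% lower in that comparison. Against arterial-rich cells 11 of the 16 were higher (median 0.37, where 6.01% of all genes were higher). The 1 lower gene was Slc28a2, a nucleoside transporter gene, at 165 (running), 153 (sedentary) and 129 (untreated) CPM in low-arterial cells, against 197 (running), 207 (sedentary) and 166 (untreated) CPM in zero-arterial cells (-0.36 ± 0.09, edgeR adjusted p = 0.00757). Kdr, the gene of the main VEGF receptor, stood at 1025 (running), 883 (sedentary) and 847 (untreated) CPM, against 619.6 (running), 597 (sedentary) and 481 (untreated) CPM in arterial-rich cells (0.70 ± 0.06, edgeR adjusted p = 5.68e-21). Its level in zero-arterial cells was 1026 (running), 898 (sedentary) and 816 (untreated) CPM, with a difference of 0.01 ± 0.06. Lpl, the lipoprotein lipase gene, was 0.88 higher on the log2 scale than in arterial-rich cells. Aplnr, the apelin receptor gene, stood at 368 (running), 390.4 (sedentary) and 174 (untreated) CPM in low-arterial cells, against 465 (running), 472 (sedentary) and 291 (untreated) CPM in zero-arterial cells and 96.5 (running), 165 (sedentary) and 30.3 (untreated) CPM in arterial-rich cells. It was lower than in zero-arterial cells in each library without passing the test (-0.45 ± 0.26, edgeR adjusted p = 0.717). It passed in 3 of 19 alternatives: the fit of 2 classes (1.17e-08), thinned cells (0.00134) and without the untreated library (0.00633), as edgeR adjusted p-values. Its difference from arterial-rich cells was 1.76 ± 0.34 (edgeR adjusted p = 0.0483, 2.62e-53 to 0.419 over the alternatives). Of 7 tested venous genes, Nrp2 was lower than in zero-arterial cells (-0.46 ± 0.08, edgeR adjusted p = 2.25e-05) and Nrp2 and Emcn were higher than in arterial-rich cells.

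Genes of the arterial wall and of signalling had calls in both directions. Over all genes tested, 1.15% were higher and 1.06% lower than in zero-arterial cells. Against arterial-rich cells these shares were 6.01% higher and 6.53% lower. Among 11 elastic fibre and matrix genes, Fn1 (fibronectin), Fbln2 and Crip1 were higher than in zero-arterial cells, Emilin1 was lower, and 9 were lower than in arterial-rich cells. Fn1 stood at 40.2 (running), 37.4 (sedentary) and 72.4 (untreated) CPM in low-arterial cells, against 15.9 (running), 25.1 (sedentary) and 19.1 (untreated) CPM in zero-arterial and 226 (running), 240.3 (sedentary) and 237 (untreated) CPM in arterial-rich cells (1.37 ± 0.19 over zero-arterial cells, edgeR adjusted p = 8.40e-08). Eln, the elastin gene, had 41.1 (running), 50.6 (sedentary) and 85.5 (untreated) CPM, against 32.2 (running), 74.5 (sedentary) and 85.6 (untreated) CPM in zero-arterial cells, and its difference of -0.11 ± 0.17 did not pass. Of 15 tested Notch pathway genes, Jag1, Dll4 and Numb were higher than in zero-arterial cells and Hes1 was lower. Hes1, a target of Notch, stood at 790.2 (running), 714 (sedentary) and 762 (untreated) CPM, against 988 (running), 862 (sedentary) and 914 (untreated) CPM in zero-arterial and 619 (running), 418 (sedentary) and 529.9 (untreated) CPM in arterial-rich cells (-0.29 ± 0.06 from zero-arterial cells, edgeR adjusted p = 0.000332). Hey1, another Notch target, ran the other way as a held-out gene. Of 17 TGF-beta and BMP genes, Smad6, an inhibitory Smad, was higher (1.39 ± 0.27) and Bmp6 lower (-0.47 ± 0.11) than in zero-arterial cells. Of 9 vasoactive genes, Adm (adrenomedullin) and Ptgs1 (cyclooxygenase-1) were lower, at -0.56 ± 0.15 and -0.77 ± 0.20 on the log2 scale. Of 12 antigen presentation genes, H2-D1 and Psmb8 were higher than in zero-arterial cells and 10 were lower than in arterial-rich cells; H2 genes have near-identical copies that can share reads. Of 15 VEGF and tip cell genes, 5 were higher and 2 lower. Of those 5, Unc5b, Igfbp3 and Vegfc were also on the arterial list above. The others were Esm1 and Flt4, the VEGF receptor 3 gene (0.49 ± 0.14). Esm1 and Flt4 each lost the call without the sedentary and without the untreated library. Of 23 immediate-early genes tested, Egr1 and Fos were lower, at -0.18 ± 0.05 and -0.16 ± 0.05. Of 9 junction and connexin genes, Gja1 was higher than in zero-arterial cells. No gene was called against zero-arterial cells among 12 flow response, 11 fatty acid handling, 10 heat shock and 12 circadian clock genes. With 2.21% of all genes tested called, 0 calls in lists this short are near that share.

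Among the genes with the largest called differences from zero-arterial cells, Col8a1, a collagen VIII gene, stood at 32.7 (running), 31.4 (sedentary) and 160.5 (untreated) CPM, against 6.87 (running), 12.2 (sedentary) and 21.8 (untreated) CPM in zero-arterial and 256 (running), 212 (sedentary) and 758 (untreated) CPM in arterial-rich cells (2.49 ± 0.18 over zero-arterial cells, edgeR adjusted p = 1.30e-18). The low-arterial cells of each library lay above every library of zero-arterial cells for Col8a1. Gper1, a membrane oestrogen receptor gene, S100a4, a calcium-binding protein gene, Nebl (nebulette), Snrpn and Bdkrb2 (the bradykinin B2 receptor) differed by 2.82, 2.35, 2.06, 2.00 and 1.96 on the log2 scale. Tmem100, Alox12 (an arachidonate lipoxygenase), Dusp26, Slc12a5 and St8sia6 followed at 1.94, 1.69, 1.58, 1.53 and 1.44. These were genes of low level, with Gper1 at 2.81 (running), 4.05 (sedentary) and 14.8 (untreated) CPM in low-arterial cells. Acta2, the smooth muscle actin gene, had the largest fitted difference (2.88 ± 0.41), but 50% of its low-arterial UMIs came from 1 cell.

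The genes furthest below zero-arterial cells were also of low level. Cxcl9, a chemokine gene, stood at 44 (running), 43.5 (sedentary) and 23.5 (untreated) CPM, against 72.4 (running), 72.5 (sedentary) and 65.7 (untreated) CPM in zero-arterial and 10.4 (running), 11.9 (sedentary) and 6.58 (untreated) CPM in arterial-rich cells (-0.96 ± 0.15 from zero-arterial cells, edgeR adjusted p = 1.64e-06). Cd247, best known as the zeta chain of the T cell receptor, stood at 44.9 (running), 42.5 (sedentary) and 32.3 (untreated) CPM. Zero-arterial cells had 66.1 (running), 88.8 (sedentary) and 66.5 (untreated) CPM of Cd247 (-0.89 ± 0.15, edgeR adjusted p = 3.93e-06). The T cell gene Cd3e was at 0 in each class of each library. The 7 leukocyte markers, of which Cd3e is 1, summed to 12.2 (running), 7.08 (sedentary) and 7.85 CPM (untreated) in low-arterial cells. Zero-arterial cells had 34.9 (running), 6.1 (sedentary) and 4.67 CPM (untreated) of these markers. The part of leukocytes in the Cd247 difference was not tested. Low-arterial and zero-arterial values did not overlap for Cxcl9 or Cd247. Cadm1, an adhesion molecule gene, differed by -1.19, Zfp985 by -1.16, Igf1 (insulin-like growth factor 1) by -1.10, Wee1 (a kinase that delays mitosis) by -1.08 and Map6 by -1.02. Hdac9, Abcb4, Lhx6, Emilin1 and Akap5 differed by -0.96, -0.96, -0.89, -0.88 and -0.88.

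Set against arterial-rich cells, the largest shortfalls were in Degs2 (-4.02), Gkn3 (-3.89), Slc45a4 (-3.61), Gper1 (-3.56), Sdc1 (syndecan-1, -3.05), Tmem100 (-2.96), Clu (clusterin, -2.95) and Rgs10 (-2.89). Gkn3 stood at 4.68 (running), 8.09 (sedentary) and 5.23 (untreated) CPM in low-arterial cells, against 101 (running), 66.8 (sedentary) and 95.4 (untreated) CPM in arterial-rich and 3.7 (running), 4.74 (sedentary) and 0.389 (untreated) CPM in zero-arterial cells. Its difference from zero-arterial cells was 1.20 ± 0.52 and did not pass the test (edgeR adjusted p = 0.31). The largest excesses over arterial-rich cells were in Slc16a6 (3.38), Medag (3.20), Dynlt1a (2.69), Atp1b1 (2.47), F2rl3 (2.44), Gem (2.25), Itm2a (2.25) and Cxxc4 (2.23). None of these 8 was called against zero-arterial cells. Dynlt1a has near-identical copies, so its reads may be split.

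Low-arterial cells were also set out by which gate gene they held, for genes picked after their values were seen. Cells with Hey1 as the 1 gate gene numbered 88 (running), 84 (sedentary) and 138 (untreated), and those with Stmn2 202 (running), 244 (sedentary) and 227 (untreated). Edn1 stood at 119 (running), 191 (sedentary) and 500.3 CPM (untreated) in the Hey1 cells, against 14.9 (running), 87.6 (sedentary) and 162 CPM (untreated) in the Stmn2 cells. Unc5b stood at 164 (running), 167 (sedentary) and 794 CPM (untreated) in the Hey1 cells, against 107 (running), 74.1 (sedentary) and 478 CPM (untreated) in the Stmn2 cells. Aplnr ran the other way, at 265 (running), 376 (sedentary) and 132 CPM (untreated) in the Hey1 cells and 512 (running), 391 (sedentary) and 256 CPM (untreated) in the Stmn2 cells. The orders of Edn1, Unc5b and Aplnr held in all 3 libraries, but the sedentary Aplnr values were close. Edn1 had only 6 UMIs in the running Stmn2 cells. Dll4 and Cxcl12, set out the same way, turned between libraries. Dll4 stood at 192 (running) and 137 CPM (sedentary) in the Hey1 cells, against 144 (running) and 148 CPM (sedentary) in the Stmn2 cells. Cxcl12 stood at 1423 (running) and 2455 CPM (sedentary), against 1904 (running) and 2338 CPM (sedentary). No test was made.

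The promoters of the 11 arterial list genes called higher were searched, where RefSeq (GRCm38.p6) gave one, for 2 motifs, TGGGAA and AACAAT, on both strands. The window ran from 250 bases before to 50 bases after the start. Of 10 matched promoters 0 held either motif, against 25.6% and 10.7% of all 32851 promoters of that length. This says only that these letters are not in those windows.

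Running was set against sedentary low-arterial cells without a test, since each group had 1 library. Of 5614 genes with at least 50 UMIs, 844 (15%) were at least 25% higher and 821 (14.6%) at least 20% lower in the running library (the same ratio in either direction); in zero-arterial cells these shares were 15.2% and 12.9%. Of the arterial genes outside the gate, 0 of 23 measured genes were higher by that ratio and 9 lower in low-arterial cells (median -0.16), and 0 higher and 4 lower of 23 in zero-arterial cells (median -0.13). In arterial-rich cells 3 were higher (Cdh13, Glul and Bmp4) and 6 lower of 24 (median -0.13). Edn1 had 64.5 CPM in the running library, against 157 CPM in the sedentary library and 385 CPM in the untreated library. Its running to sedentary log2 ratio was -1.27 (95% interval -1.71 to -0.86, counting error only) in low-arterial and -1.19 in zero-arterial cells. Notch4, a Notch receptor gene, had 71.1 CPM in the running library, against 121 CPM in the sedentary library and 68 CPM in the untreated library (log2 ratio -0.77, 95% interval -1.21 to -0.35). The other 7 were Vegfc, Cxcr4, Depp1, Jag1, Alpl, Epas1 and Cxcl12.

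Immediate-early genes leaned high, with 15 of 21 measured genes higher by that ratio and 0 lower (median 0.43), and 17 of 22 in zero-arterial cells (median 0.39). Egr1, an early transcription factor gene, had 1552 CPM in the running library, against 980.1 CPM in the sedentary library and 1385 CPM in the untreated library in low-arterial cells. Atf3, a stress-induced transcription factor gene, had 323 CPM in the running library, against 183 CPM in the sedentary library and 208 CPM in the untreated library, with log2 ratios of running to sedentary of 0.82 in low-arterial and 0.80 in zero-arterial cells. For Egr1 the untreated library lay between the other 2. The shift was of like size in low-arterial and zero-arterial cells. In arterial-rich cells 8 of 20 measured genes were higher by that ratio and 0 lower, with a median of 0.20. No difference between classes was tested.

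Among the named genes that were lowest in the running library against both others were Esm1 (-1.43), Ulk1 (an autophagy kinase, -1.28), Adh1 (alcohol dehydrogenase, -1.19), Whamm (-1.13), Zc3hc1 (-1.13), Gcn1l1 (-1.05), Vps13d (-1.05) and Ssfa2 (-0.91), as log2 ratios of running to sedentary. Whamm, at 0.42 in zero-arterial cells, was on the other side of 0 there. Adm had 89.8 CPM in the running library, against 39.4 CPM in the sedentary library and 32.3 CPM in the untreated library (log2 ratio 1.18, 95% interval 0.64 to 1.76). Plk3 (1.09), Tubb6 (1.17), Maff (1.27) and H2-Q6 (1.37) were other genes that were highest in the running library.

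Of the 10 genes that were highest in the running library, 5 rested in part on single cells: Ccl21a (4.26), Igfbp5 (3.39), Acta2 (3.31), Tagln (1.47) and Myl9 (1.24). The top cell held 24.1% of the low-arterial UMIs of Ccl21a, 21.8% of Igfbp5, 50% of Acta2, 17.8% of Tagln and 18% of Myl9. Ccl21a is a lymphatic chemokine gene with near-identical copies, and Acta2, Tagln and Myl9 are contractile genes of mural cells. The lymphatic and mural marker sums were also highest in running low-arterial cells, as given above. With barcodes bearing other cell types' markers left out, an alternative added after the data were seen, Ccl21a had a log2 ratio of 2.80 and the other 4 fell under 50 UMIs.

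**Figure D5:**
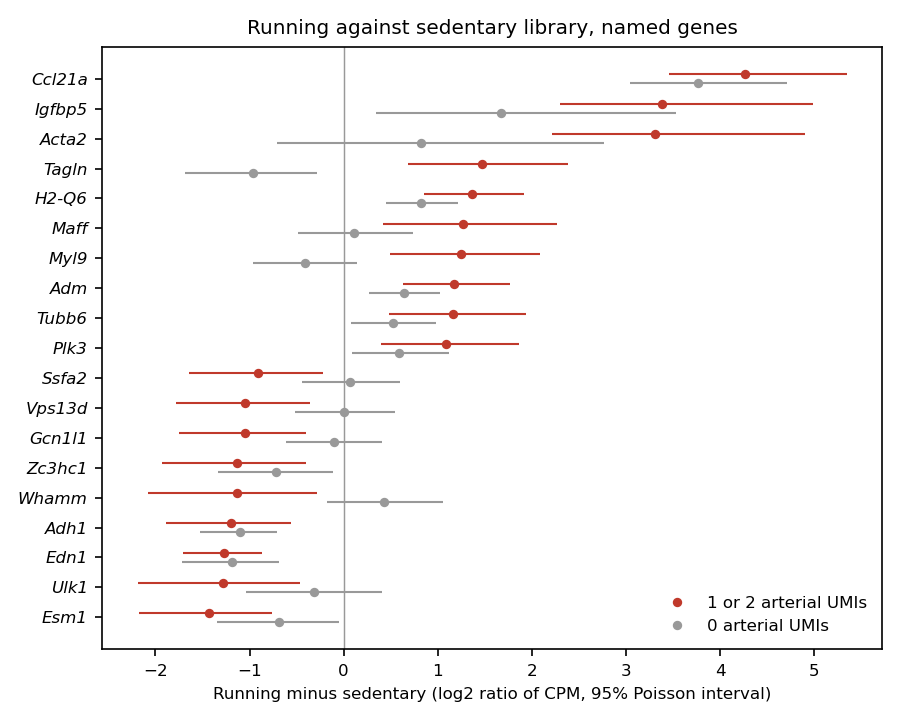
Log2 ratio of CPM in the running library to CPM in the sedentary library (horizontal axis) with exact 95% Poisson intervals for the named genes, in low-arterial (red) and zero-arterial cells (grey). Edn1 and Adh1 were at about the same ratio in both classes, while the ratios of Acta2 and Tagln were higher in low-arterial cells.

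The untreated library stood further from the sedentary library than the running library did, with 1325 (23.1%) of 5742 genes at least 25% higher and 1461 (25.4%) at least 20% lower in low-arterial cells. Bcl2l11, a gene of a pro-apoptotic protein, had 74.1 CPM in untreated and 5.06 CPM in sedentary low-arterial cells, and Tnfrsf1b, a TNF receptor gene, had 112 CPM in untreated and 14.2 CPM in sedentary cells. Klhl21 was 2.77 higher on the log2 scale. Slx1b was lower, at 40.1 CPM in untreated, against 199 CPM in sedentary cells, and Erdr1 likewise at 12.2 CPM in untreated, against 88 CPM in sedentary cells. Plac8 had 0 UMIs in untreated low-arterial cells, and 98% of its UMIs came from 1 sedentary cell.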

How the data were processed

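Viable CD31+, CD45- endothelial cells of gastrocnemius muscle were loaded on the 10x Chromium Single Cell 3' kit v2, per the labels' protocols. The deposited values were UMI counts per gene and barcode, made by the authors with Cell Ranger 2.0.2 on GRCm38.p5, per the submitters' processing notes; the gene annotation and cell calling are not given in the sources used here. Barcodes were kept and sorted by the counts the report gives, and rows that share a symbol were kept apart. The members, gene lists and named-gene rule were chosen with earlier results of these data known. The rule named 1 further gene that is not reported here.

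Counts were summed over the cells of each class in each library (9 sums). The 20 gate genes were left out, and edgeR 4.0.16 (R 4.3.3; filterByExpr, TMM, robust quasi-likelihood fit, library and class as terms, Benjamini-Hochberg adjustment over all genes tested, threshold 0.05) compared the classes. The library block pairs classes that share a library and its animals. The 3 libraries are 3 conditions, so p-values set class differences against their variation between these libraries. With 4 residual degrees of freedom, the spread of each gene was drawn toward that of other genes (common coefficient of variation 0.06). Very small p-values therefore rest largely on this pooled spread and not on the gene's own variation between libraries. The p-values do not measure the spread between replicates of 1 condition. Each gate gene was also tested with the classes set by the other 6. Tested on simulated counts for this comparison (8980 genes), the fit recovered 83% of genes changed 1.5-fold and 100% of those changed 2-fold, with 4 false calls. Only genes of higher counts were changed there, by the same ratio in each library. All genes were given the same spread. These rates therefore do not cover genes of a few CPM or differences that vary between libraries.

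CPM are UMIs of a gene scaled to the sum of its class and library, computed with Python 3.11.15 and scanpy 1.11.5. Ratios between libraries used a prior count of 0.5 and genes with at least 50 UMIs; their 95% Poisson intervals, and the Clopper-Pearson intervals of shares, cover counting error only. Scrublet with an expected rate of 0.05 marked 1 (running), 7 (sedentary) and 1 (untreated) of the kept barcodes. That was too few for a working doublet caller, and no barcode was removed. Median doublet scores were 0.081 (running), 0.087 (sedentary) and 0.087 (untreated) in low-arterial cells. Zero-arterial cells had 0.076 (running), 0.076 (sedentary) and 0.077 (untreated), and arterial-rich cells 0.071 (running), 0.076 (sedentary) and 0.069 (untreated). Without barcodes in the top 5% of scores, 182 genes were called against zero-arterial cells. The part of doublets in the results was not tested.

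Named genes were the 12 highest and 12 lowest calls against zero-arterial cells, 8 and 8 against arterial-rich cells, 10 and 10 running to sedentary ratios with the same sign against the untreated library and 3 and 3 untreated to sedentary ratios, without mitochondrial, ribosomal, haemoglobin and number-only genes. Class differences needed the same sign in 3 libraries and at least 100 UMIs. Alternatives changed the normalization, tool, filters, gate, depth, block and libraries. Chosen after seeing values were the fits without other cell types' barcodes and of only 2 classes, the venous-marked class, the genes set out by gate gene, those above or below both classes and the 2 promoter motifs.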

Additional observations from a re-analysis of the deposited data

Results flagged for a closer look

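A set of 3 genes differed between libraries in the sign of a difference between cell classes, and the differences between libraries were not tested, with 1 library per condition. Acta2 was higher in low-arterial than in arterial-rich cells of the running library (log2 ratio 0.63) and lower in the untreated library (-1.996), and 50% of its low-arterial UMIs came from 1 cell. Klf4, a flow-induced transcription factor gene, stood at a low-arterial to zero-arterial log2 ratio of -0.21 in the running and -0.15 in the sedentary library, against 0.093 in the untreated library. Dusp1, an immediate-early phosphatase gene, stood at -0.21 in the running and 0.10 in the untreated library.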

How the results depend on the processing

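Against zero-arterial cells, where 202 genes were called, DESeq2 called 44 (42 of them shared; 1241 adjusted p-values were not given), thinning to 1000 UMIs 352, cells at exactly 1 arterial UMI 44 and a gate without Fbln5 and Stmn2 689; single libraries left out gave 91 to 198. Against arterial-rich cells, where 1146 were called, DESeq2 called 533, cells of 1000 to 2000 UMIs 534, thinned cells 457, cells at exactly 2 UMIs 467 and the gate without Fbln5 and Stmn2 736; single libraries left out gave 792 to 913. Without the library block, which pairs classes of a library, edgeR called 0 and 217 genes and 2 of 7 held-out genes, against 6 of 7 with it and in each fit without 1 library. The 2 alternatives added after the data were seen gave 207 (without barcodes of other cell types) and 284 calls (only 2 classes) against zero-arterial cells. The share of low-arterial cells was 23.7% (running) and 24.8% (untreated) when thinned, and 20.4% (running), 23.04% (sedentary) and 19.7% (untreated) without Fbln5 and Stmn2. Genes past the ratio between running and sedentary numbered 1665, against 3255 at a minimum of 20 UMIs, 280 at 200 UMIs, 1041 when thinned and 1071 at 1000 to 2000 UMIs; TMM scaling moved the median of all genes against the untreated library to 0.007, against 0.057.

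Against zero-arterial cells, signs turned for Fos (0.013 without Fbln5 and Stmn2), Esm1 (-0.0065 at 1000 to 2000 UMIs) and Igfbp7 (-0.0093 thinned). Against arterial-rich cells, signs turned for Fos (0.041 at 1000 to 2000 UMIs and 0.12 thinned) and Esm1 (-0.60 at 1000 to 2000 UMIs). Dusp1 (0.062 thinned) and Depp1 (8430408G22Rik, 0.10 without Fbln5 and Stmn2) also turned against arterial-rich cells. The cause was not tested. Of 60 genes of the lists and named genes called against zero-arterial cells, 34 lost the call without 1 library. Without the running library these were Abcb4, Akap5, Egr1, Emilin1, Fos, Hdac9 and Tmem100. Without the sedentary library they were Abcb4, Adm, Bdkrb2, Bmp6, Dll4, Egr1, Esm1, Fbln2, Flt4, Fos, H2-D1, Hdac9, Igf1, Lhx6, Map6, Mecom, Numb, Psmb8, Ptgs1, Slc28a2, Smad6, Vegfc, Wee1 and Zfp985. Without the untreated library they were Abcb4, Adm, Akap5, Bdkrb2, Bmp6, Dll4, Dusp26, Efnb2, Egr1, Emilin1, Esm1, Flt4, Gper1, H2-D1, Hdac9, Jag1, Lhx6, Mecom, Nebl, Numb, Ptgs1, S100a4, Slc12a5, Slc28a2, Tmem100, Wee1 and Zfp985. Of 114 described genes called against arterial-rich cells, 39 lost the call without 1 library, among them Aplnr (running), Cxcl12, Cdh13 and Edn1 (sedentary). Depth limits genes of a few UMIs per library, such as Bmx.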
